A study of Rattus norvegicus with 4 samples.

Results

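The 26S proteasome genes of rat oxyntic mucosa, the gastric epithelium that makes acid, were followed in a comparison of octreotide LAR with its vehicle. Members were every probe set whose platform annotation names a single gene with a symbol made of Psm, a letter from a to g and a number, which does not use the measured values. The rule took 46 probe sets of 43 genes, out of 12783 probe sets that name a single gene, 10411 genes in all. They comprised 13 probe sets of the 20S core, 3 of the immunoproteasome subunits, 19 of the 19S particle and 11 of activators and chaperones. Of these genes, 2 are no subunits, activators, inhibitors or assembly chaperones of the proteasome although their symbols match, Psmc3ip and Psme3ip1. Psmc3ip is a partner protein in meiotic recombination that the rule puts with the 19S particle. Psme3ip1 is a protein that binds the activator Psme3. The 19S group also holds the assembly chaperones Psmd5, Psmd9 and Psmd10. A further 6 probe sets carry a family symbol together with other genes, 4 of them for Psme3, and were not members; Psmb6 and Psme3 are therefore not analysed here.

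The rats were female Sprague-Dawley animals of 8 weeks, fasted for a night and anaesthetised before scraping of the mucosa, and the titles give 21 days. The treated group received octreotide LAR, the slow-release depot of an analogue of somatostatin, at 5 mg per animal, and the control group received the LAR vehicle alone. A single Affymetrix RAE230A chip held pooled RNA of 8 vehicle animals and 3 chips each held pooled RNA of 2 treated animals, called pools 1 to 3. The control sample was placed by its title, because another of its labels names octreotide LAR. The vehicle group is thus a single measurement with no spread of its own, and a peculiarity of that pool cannot be told apart from an effect of treatment. On bulk tissue, fewer cells of a type and less RNA per cell cannot be told apart either.

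The proteasome is the main protease of the cytosol and nucleus and degrades proteins tagged with ubiquitin. Its 20S core is a barrel of outer alpha rings and inner beta rings, in which Psmb5, Psmb6 and Psmb7 encode the active sites. Immune cells, and other cells exposed to interferon, replace these by Psmb8, Psmb9 and Psmb10, which form the immunoproteasome and favour peptides for MHC class I. The 19S particle caps the barrel, with Psmc genes encoding the ATPase ring that unfolds substrates and most Psmd genes encoding the base and lid that bind ubiquitin and remove it. Psme1 and Psme2 form the PA28 activator, Psme4 is the PA200 activator, Psmf1 is the inhibitor PI31, and Psmg1 to Psmg4 are chaperones of core assembly.

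The start regions of the inducible subunits and of Psmb5 are shown because the inducible subunits held the largest difference in the family. They were taken from RefSeq windows on GRCr8, each running from 250 bases before to 50 after the annotated start, 5′ to 3′ on the gene's strand. Psmb9 lies at chr20:4668750-4669049 on the plus strand, Psmb8 at chr20:4656982-4657281 on the minus strand, Psmb10 at chr19:50743243-50743542 on the minus strand and Psmb5 at chr15:32047330-32047629 on the minus strand. Capitals mark 4 motifs searched on both strands: the core AANNGAAA recognised by interferon regulatory factors, the gamma-activated site TTCNNNGAA, the CCAAT box CCAAT, and the antioxidant response element core TGACNNNGC, a sequence bound by Nrf-family factors. The gamma-activated site reads the same on both strands.
Psmb9: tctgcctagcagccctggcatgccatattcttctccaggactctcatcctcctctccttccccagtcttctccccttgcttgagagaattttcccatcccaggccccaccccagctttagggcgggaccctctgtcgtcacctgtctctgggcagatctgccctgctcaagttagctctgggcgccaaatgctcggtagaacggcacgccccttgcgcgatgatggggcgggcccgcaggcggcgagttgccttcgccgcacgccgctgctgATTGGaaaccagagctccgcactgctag
Psmb8: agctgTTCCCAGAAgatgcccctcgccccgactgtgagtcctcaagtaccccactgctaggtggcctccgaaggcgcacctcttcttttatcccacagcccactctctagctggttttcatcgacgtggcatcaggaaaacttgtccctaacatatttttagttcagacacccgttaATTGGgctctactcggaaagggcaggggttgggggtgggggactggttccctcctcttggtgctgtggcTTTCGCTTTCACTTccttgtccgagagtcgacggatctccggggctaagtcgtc
Psmb10: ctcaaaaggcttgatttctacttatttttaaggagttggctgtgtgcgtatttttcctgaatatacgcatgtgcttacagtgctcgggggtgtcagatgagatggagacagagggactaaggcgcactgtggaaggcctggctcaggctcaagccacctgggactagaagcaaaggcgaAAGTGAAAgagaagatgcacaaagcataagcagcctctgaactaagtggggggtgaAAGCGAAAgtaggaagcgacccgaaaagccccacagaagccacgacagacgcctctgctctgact
Psmb5: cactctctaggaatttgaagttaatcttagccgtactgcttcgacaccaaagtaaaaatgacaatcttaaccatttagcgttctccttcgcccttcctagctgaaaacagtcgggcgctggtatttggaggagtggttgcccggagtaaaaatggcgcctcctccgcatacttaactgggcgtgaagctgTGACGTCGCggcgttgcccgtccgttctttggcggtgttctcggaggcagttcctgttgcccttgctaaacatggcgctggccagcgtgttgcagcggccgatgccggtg

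The windows of Psmb10 and Psmb8 each held the interferon regulatory factor core at 2 places, the 2 in Psmb8 overlapping and on the opposite strand, while the Psmb9 window held a CCAAT box alone. Windows were found for 41 of the 43 genes, by gene identifier. The interferon regulatory factor core was in 17 of them (41.5%) against 25.9% of all 27457 windows, and both PA28 genes, Psme1 and Psme2, were among these 17. A stricter form with GA before that core, counted in addition to the 4 motifs, was in 7 member windows (17.1%) against 3.77% of all. Psmb8 and Psmb10 were among these 7. The CCAAT box was in 22 member windows (53.7%) against 37.7% of all, and in 9 of 12 windows of the 20S core. The antioxidant response core was in 7 (17.1%) against 12.2%, among them Psmb5, Psmb2, Psma3 and Psmd1. The gamma-activated site was in 3 (7.32%) against 8.68%. These matches describe letters in a window, and no binding was measured. In the gene table, Psmb8 and Psmb9 lie in the MHC on chromosome 20 in the order Tap2, Psmb8, Tap1 and Psmb9, and the windows of Tap1 and Psmb9, which run on opposite strands, share 44 bases.

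No proteasome probe set was called higher or lower with octreotide LAR, and most differences from the vehicle chip were small. Signals were compared as log2(signal + 16) with limma over the 9520 probe sets whose mean reached the 40th percentile, near a signal of 144.7. P-values were adjusted over all of them by Benjamini-Hochberg, and an adjusted p under 0.05 counted as called. All 46 member probe sets reached that level, and their differences on the log2 scale ran from -0.37 for Psmd4 to 0.78 for Psmb9, with a median of 0.05 against -0.0031 over all probe sets tested. None of the 46 passed (smallest limma adjusted p = 0.9998), where 10 of the 9520 did, 0.105% of them. At an unadjusted p under 0.05 there was 1 member, Psmb9, which is 2.17% of members against 4.57% of all tested, or 2.86% when only higher probe sets are counted. In the mean, 28 members were higher (60.9%, against 49.4% of all tested) and 18 lower (39.1%, against 50.6%).

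The vehicle signal lay under all 3 treated signals for 11 members (23.9%) and above all of them for 7 (15.2%), and within their range for the other 28. Over all tested probe sets those shares were 25.0% and 24.0%, so the share of members on the higher side was near the background. The half-width of the limma intervals sets what could be seen. The 95% interval lay inside a 2-fold change in both directions, 1 on the log2 scale, for 44 of 46 members (95.7%) and for 81.4% of all tested; the exceptions were Psmb8 and Psmb9. It lay inside a 1.5-fold change for 26 members (56.5%) against 26.8% of all tested. Member probe sets were brighter, with a median signal of 1125 against 496.1, and the median SD between treated pools on the log2 scale was 0.13 against 0.18; the fit lets the spread depend on the level, and the part of brightness in the narrower intervals was not tested.

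**Figure D1:**
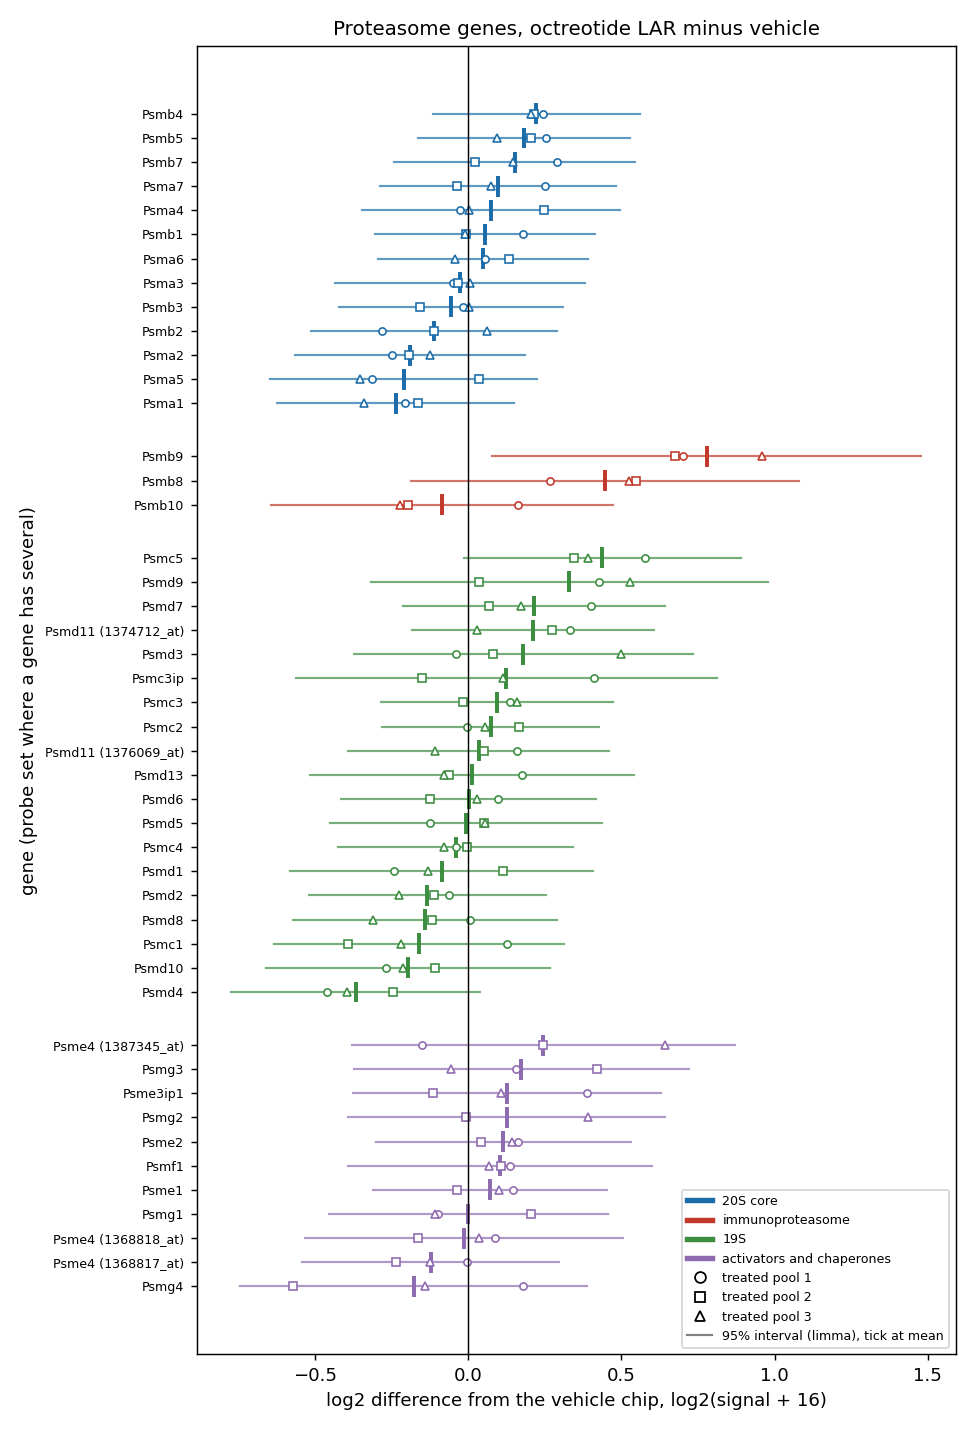
Log2 difference from the vehicle chip (x axis) for each of the 46 proteasome probe sets (y axis), coloured by group; open symbols are the 3 treated pools, the tick is their mean and the line the 95% limma interval. Only the interval of Psmb9, from 0.08 to 1.48, excludes 0 before adjustment, and most means lie within 0.25 of it.

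The inducible subunits did not all lie on the same side of the vehicle chip. Psmb9, the inducible counterpart of Psmb6, read 133.6 with vehicle and 227.3, 222.8 and 274.5 on pools 1, 2 and 3. All treated signals lay above the vehicle signal, and the vehicle signal lay under the level of 144.7, so this probe set reached the filter through the treated chips. The mean treated signal was 242 ± 28.6 (SD, n = 3). The log2 difference was 0.78 ± 0.33 (SE), 1.71-fold, with a 95% interval from 0.08 to 1.48 (limma unadjusted p = 0.032, adjusted p = 0.9998). That unadjusted p was 0.101 without pool 3 and 0.057 when dim probe sets were kept, so it rests on both choices.

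Psmb8, the inducible counterpart of Psmb5, had 205.2 with vehicle and 250.2, 307.4 and 302.4 with octreotide LAR. Its treated signals were again all above the vehicle signal, though pool 1 was closer to it. The log2 difference was 0.45 with an interval from -0.19 to 1.08 (limma unadjusted p = 0.15). Psmb10, the counterpart of Psmb7, went both ways, with 431.2 against 484.8, 374.5 and 367.5. Pool 1 was above and pools 2 and 3 below the vehicle chip, and the mean log2 difference was -0.08 with an interval from -0.64 to 0.47. The median of the 3 inducible subunits was 0.45, and 0.27, 0.55 and 0.53 on pools 1, 2 and 3.

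Both constitutive active-site subunits that were measured lay slightly above the vehicle chip. Psmb5, the chymotrypsin-like site, had 3733 with vehicle and 4450, 4301 and 3984 with octreotide LAR. Psmb7, the trypsin-like site, had 1697 against 2079, 1722 and 1879. The treated signals were higher on every pool, by 0.18 (95% interval -0.16 to 0.53) and 0.15 (-0.24 to 0.55) on the log2 scale, and neither passed. The difference of Psmb8 exceeded that of Psmb5 by 0.01, 0.34 and 0.43 on pools 1, 2 and 3, and the difference of Psmb10 minus that of Psmb7 was -0.13, -0.22 and -0.37. The inducible and constitutive partners thus did not part in the same direction in both pairs, and these contrasts were not tested.

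**Figure D2:**
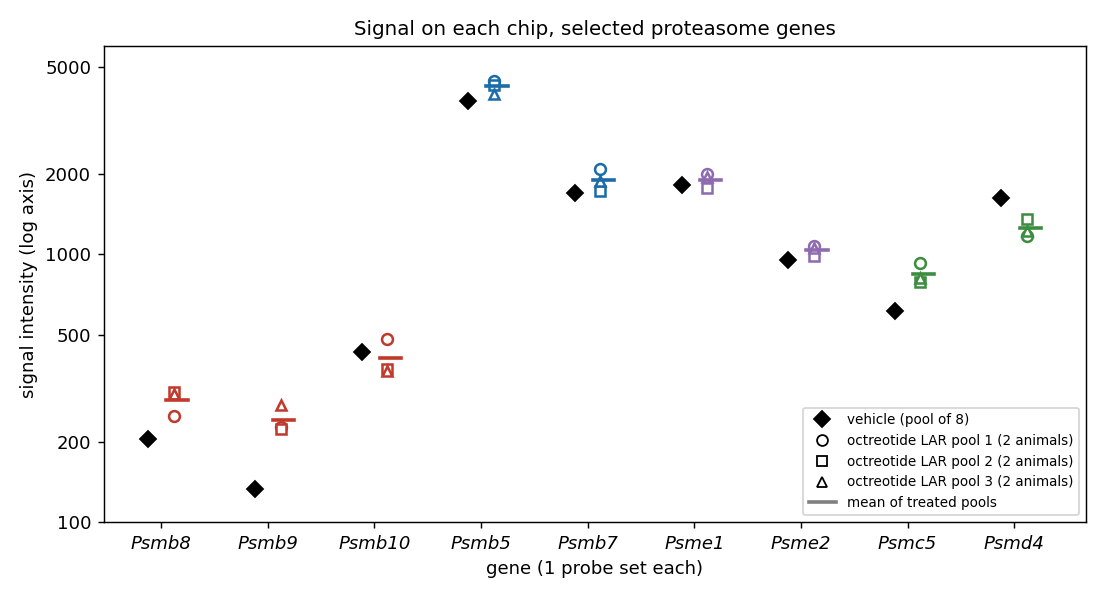
Signal intensity (log axis) on each of the 4 chips for 9 proteasome genes; diamonds are the vehicle pool, open symbols the 3 treated pools and bars their mean. Psmb9, Psmb8, Psmb5, Psmb7, Psme2 and Psmc5 have all treated signals above the vehicle signal. Psmd4 has all below it, while Psmb10 and Psme1 overlap it. Probe sets bind with different strength, so heights are not compared between genes.

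Cells in which the immunoproteasome is abundant, and the pathway it feeds, were read on the same chips. Leukocyte markers had 24 of 27 genes on the chip, of which 8 could be tested, and none passed even unadjusted. Their summed signal was 6737 with vehicle and 7016, 6804 and 8031 on pools 1, 2 and 3. Ptprc, the pan-leukocyte phosphatase CD45, reached at most 109.1 on any chip with either probe set, and no marker was listed at 0. In the mean 5 of the 8 were higher and 3 lower, with a median log2 difference of 0.05. Cd74, the MHC class II invariant chain and the brightest of them, had 2124 against 2412, 2254 and 2906, all above the vehicle chip. Il2rg, a cytokine receptor chain of lymphocytes, had 343.4 against 280.2, 251.7 and 234.1, and Cd48, a leukocyte surface protein, had 304.7 against 246.2, 236.4 and 274.2, all below it. The part of leukocytes in the difference of Psmb9 was not tested.

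Of class I antigen loading, 12 of 20 listed genes were on the chip, and 12 probe sets of 7 genes were tested. None passed even unadjusted, 4 were higher and 8 lower in the mean, and the median log2 difference was -0.12. Canx, the ER chaperone calnexin, had the smallest unadjusted p with 814.4 against 702.5, 507 and 565.6 on its dimmest tested probe set. The brightest Canx probe set had 4022 against 3914, 4105 and 4004, on both sides of the vehicle chip, with a log2 difference of -0.01. The remaining Canx probe set differed by -0.17 and lay below the vehicle chip on every pool. Erap1 had 2198 against 1909, 1748 and 1727 on its brighter tested probe set by the vehicle chip, all below that chip. The other tested Erap1 probe set had 1643 against 1197, 2525 and 2140, on both sides of it. Calr had 4968 against 4453, 4045 and 4467, all below the vehicle chip. B2m, the light chain of class I molecules, had 5902 against 5360, 8334 and 7238 on its brighter probe set. Those pools lay on both sides of the vehicle chip. Its other probe set had 1371 against 1495, 1585 and 1486, above the vehicle chip on every pool, with a log2 difference of 0.15. The transporter genes that neighbour Psmb8 and Psmb9 were too dim for testing. Tap2 had 76.4 against 121.7, 134.3 and 128.9, all above the vehicle chip. The probe sets of Tap1 disagreed, one with 92.4 against 75.8, 67 and 45.7 and the other with 6.1 against 32.7, 20.8 and 57.8.

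Among interferon response genes, 13 probe sets of 13 genes were tested, 6 higher and 7 lower in the mean, with a median log2 difference of -0.03. At an unadjusted p under 0.05, 2 were higher and none lower, where 2.86% and 1.71% of all tested probe sets were, and none passed after adjustment. Rsad2, the antiviral protein viperin, had 101.6 against 194.2, 206.9 and 184.8, and Ifngr2, a chain of the interferon gamma receptor, had 401.4 against 679.3, 493.4 and 612.4. Both lay above the vehicle chip on every pool, by 0.84 and 0.54 on the log2 scale. Oas1a, an antiviral RNA-sensing enzyme, had 229 against 169.6, 140 and 180.6, below the vehicle chip on every pool, with a log2 difference of -0.46. Like Psmb9, Rsad2 had a vehicle signal under the filter level. Among the genes too dim for testing, Ifit3 had 223.2 against 97.3, 132.4 and 111, below the vehicle chip on every pool. Gbp2, Irf8 and Oas1b, also untested, lay above it on every pool. The signals of Oas1b were very low, 3.7 against 16.7, 4.5 and 57.8.

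The 20S core as a whole, Psmb5 and Psmb7 included, varied little around the vehicle level. Of its 13 probe sets 7 were higher and 6 lower in the mean, and the median log2 difference was 0.05, with -0.02, -0.01 and 0.00 on pools 1, 2 and 3. No core subunit had an unadjusted p under 0.05, and all 13 intervals lay inside a 2-fold change, 11 of them inside a 1.5-fold change. Psmb4, a structural beta subunit, was the highest at 0.22, with little spread between pools (0.24, 0.21 and 0.21). Psmb1, Psmb2 and Psmb3, the other structural beta subunits, lay at 0.05, -0.11 and -0.06.

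The alpha subunits, which form the gate of the barrel, held the lowest differences of the core. Psma1 had 1853 with vehicle and 1603, 1651 and 1462 with octreotide LAR, all below it. Psma2 had 2081 against 1748, 1816 and 1905, also all below. Psma5 had 1679 against 1348, 1719 and 1310, with pool 2 above the vehicle chip. Their log2 differences were -0.24, -0.19 and -0.21, with intervals from -0.63 to 0.15, -0.57 to 0.19 and -0.65 to 0.22. Psma3, Psma4, Psma6 and Psma7 lay between -0.03 and 0.10. Psma3 shares close sequence with a copy named Psma3l, and signal of the copy could add to its probe set.

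**Figure D3:**
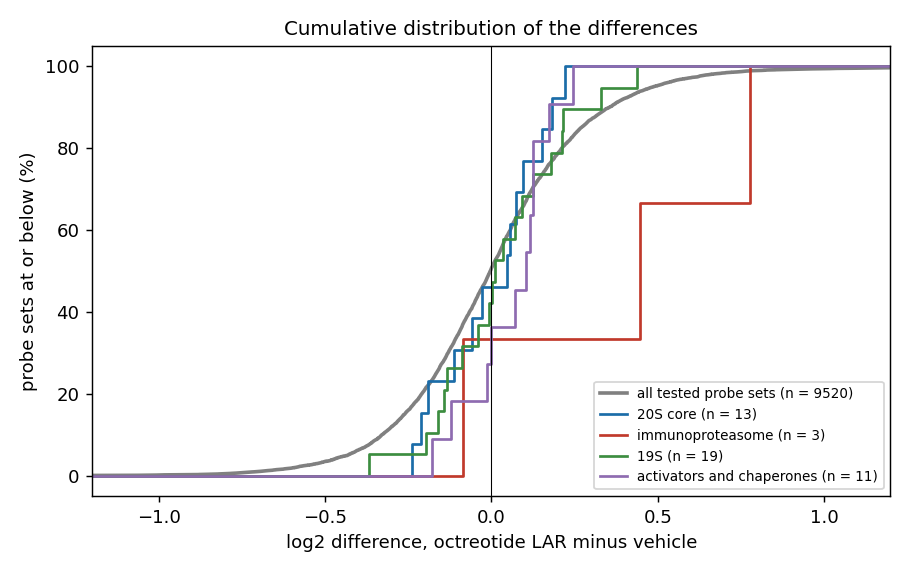
Share of probe sets (y axis, %) at or below each log2 difference of octreotide LAR from vehicle (x axis), for the 4 proteasome groups and for all 9520 tested probe sets. The 20S core, 19S and activator curves rise near 0 over a narrower range than the grey curve, and of the 3 inducible subunits 2 lie to the right.

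The 19S particle had 11 probe sets higher and 8 lower, with a median log2 difference of 0.01. It held the largest differences outside the inducible subunits, in both directions. Psmc5, an ATPase of the ring also known as Rpt6, had 616.2 on the vehicle chip and 926.3, 787 and 813.1 on pools 1, 2 and 3. All treated signals were above the vehicle signal, and the log2 difference was 0.44 ± 0.21 (SE), 1.35-fold, with an interval from -0.01 to 0.89 (limma unadjusted p = 0.057). Psmd4, the ubiquitin receptor Rpn10, had 1618 against 1170, 1361 and 1227. All of these were below the vehicle signal, and the log2 difference was -0.37 ± 0.19 (SE), 1.29-fold lower, with an interval from -0.77 to 0.04 (limma unadjusted p = 0.072).

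The other ATPases of the ring that were measured as members did not share the difference of Psmc5. Psmc6 had no member probe set. Psmc1, Psmc2, Psmc3 and Psmc4 lay at -0.16, 0.07, 0.09 and -0.04, and Psmc1 lay above the vehicle chip on pool 1 (0.13) and below it on pools 2 (-0.39) and 3 (-0.22). Among base and lid subunits, Psmd7, a lid subunit paired with the deubiquitinase, lay at 0.21 and above the vehicle chip on every pool, and Psmd2, a large base subunit, lay at -0.13 and below it on every pool. Psmd1, Psmd3, Psmd6, Psmd8 and Psmd13 lay at -0.09, 0.18, 0.00, -0.14 and 0.01, each with pools on both sides. Psmd11, a lid subunit, was read by 2 probe sets at 0.21 and 0.03. Psmc3ip lay at 0.12.

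Of the 19S assembly chaperones, Psmd9 had 234.8 against 320.8, 241 and 345.7, and Psmd10, also called gankyrin, had 711.9 against 588, 659.5 and 612.1. Psmd9 lay above the vehicle chip on every pool, barely so on pool 2, and Psmd10 below it. Their log2 differences were 0.33 (95% interval -0.32 to 0.98) and -0.20 (-0.66 to 0.27), and Psmd5, the third chaperone, lay at -0.01.

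The PA28 subunits had differences close to 0, and the probe sets of Psme4 ranged more widely. Psme1 had 1808 with vehicle and 2003, 1763 and 1941 with octreotide LAR, and its partner Psme2 had 956.5 against 1072, 985.1 and 1057. Psme1 overlapped the vehicle chip and Psme2 lay just above it on every pool. The log2 differences were 0.07 (95% interval -0.31 to 0.45) and 0.11 (-0.30 to 0.53), and both genes are known to be induced with the immunoproteasome. Psme4 was read by 3 probe sets that disagreed. The brightest had 1189 against 1184, 1008 and 1088, the second 459 against 488.7, 408.4 and 470.3, and the third 411.3 against 369.1, 489.7 and 650.5. Their log2 differences were -0.12, -0.01 and 0.24, and none had an unadjusted p under 0.05. The third rests on pool 3, at 0.64: its difference was 0.05 without pool 3 and 0.44 without pool 1.

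The inhibitor Psmf1 lay at 0.10, with all pools slightly above the vehicle chip. The core assembly chaperones Psmg1, Psmg2, Psmg3 and Psmg4 lay at 0.00, 0.13, 0.17 and -0.18, each with the vehicle value inside the range of the treated pools. Psmg4 ranged from -0.57 on pool 2 to 0.18 on pool 1, the lowest single pool value of the family. Psme3ip1 lay at 0.13. The median of this group was 0.10.

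Other genes of the pathway were read from lists. Of the genes for assembly factors and transcription of the proteasome, 7 probe sets of 5 genes were tested, 3 higher and 4 lower, with a median of -0.13, and none had an unadjusted p under 0.05. Pomp, the maturation factor of the core, had 3376 against 4185, 3899 and 3564, and Nfe2l2, the oxidative stress factor Nrf2, had 2889 against 3418, 3233 and 3367. Both lay above the vehicle chip on every pool, by 0.20 and 0.21 on the log2 scale. The small Maf factors Mafk and Mafg, DNA-binding partners of the Nrf factors, lay at -0.28 and -0.27. Mafk had 742.6 against 502.2, 606.4 and 739.6, with pool 3 close to the vehicle chip. Mafg had 196 against 140.2, 218.2 and 133.1, on both sides of the vehicle chip. Nfe2l1, the factor that drives proteasome genes when the proteasome is inhibited, was read by 3 probe sets at 0.23, -0.13 and -0.20.

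Proteasome partners, among them shuttle factors, a ubiquitin receptor and the Vcp unfoldase with its cofactors, had 22 probe sets tested, 10 higher and 12 lower, and a median of -0.02. None had an unadjusted p under 0.05. The smallest was that of Ube3c, a ubiquitin ligase bound to the proteasome, with 658.2 against 504.3, 485.4 and 480.2, all below the vehicle chip. The COP9 signalosome, a complex related to the 19S lid, had 10 probe sets tested, 3 higher and 7 lower, and a median of -0.10, again with none at an unadjusted p under 0.05. The ubiquitin genes of the list had no probe set that names a single gene.

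Ubiquitin-activating and conjugating enzymes had 37 probe sets of 30 genes tested, with a median of -0.02. At an unadjusted p under 0.05, 2 were higher and 1 lower, where 2.86% and 1.71% of all tested probe sets were. None passed after adjustment. Ube2g2, a conjugating enzyme of ER-associated degradation, had 253.3 against 586, 392.9 and 528.7, and its relative Ube2g1 had 694.3 against 436.1, 353.3 and 322.6. They differed by 0.93 and -0.89 on the log2 scale, in opposite directions. A second, brighter probe set of Ube2g1 had 1826 against 1945, 1810 and 1940, a difference of 0.05, so it did not share the lower treated signal of the first. Ube2d2, a broadly acting conjugating enzyme, had 152.2 against 287.7, 275.1 and 270.5 on one probe set, while its other tested probe sets differed by -0.05 and 0.03.

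Markers of other cell types differed between the groups on the same chips. Markers of squamous epithelium, which lines the neighbouring forestomach, had 12 of 14 genes on the chip, and their summed signal was 2120 with vehicle and 10372, 7455 and 6507 on pools 1, 2 and 3, with none at 0. All 12 tested squamous probe sets were higher on every pool, against 25.0% of all tested, with a median log2 difference of 1.77. Of these, 5 had a vehicle signal under the filter level and reached it through the treated chips, so this count leans on the filter. Markers of the histamine-storing ECL cell had 8 of 8 genes on the chip and a summed signal of 16499 with vehicle against 8223, 8628 and 8685, with none at 0 and a median of -0.82. Parietal markers, which define the tissue, were present on all chips, with sums of 93469 against 99744, 89969 and 85528 and a median of -0.18. The 6 tested probe sets of chief cell markers had a median of -0.15 and the 11 of surface mucous markers 0.23. The part of these shifts in any proteasome value was not tested. The squamous sum was highest on pool 1.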

How the data were processed

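Biotin cRNA made by in vitro transcription was hybridised to Affymetrix RAE230A chips, per the labels' protocols and the experiment headers. The authors deposited linear signal intensities, 1 value for each probe set on each chip; how they were computed and scaled is not given in the sources used here. The mean without the 2% at each end was 496.8 to 497.2 on all chips, so a shift of all transcripts together would not show. Median signals were 223.7 to 233.4, and the vehicle chip correlated with treated chips at 0.9629 to 0.9679, as these did with each other (0.9614 to 0.9685). Per the headers, the chips shared a lot and a wash protocol, and each had its own fluidics module.

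No further normalization was applied. Signals were taken as log2(signal + 16), which shrinks the folds of dim genes. Probe sets with a mean log2 value at or over the 40th percentile were fitted with limma 3.58.1 in R 4.3.3 (lmFit, eBayes with a trend), two-sided, 3 treated chips against 1 vehicle chip, with 2 residual and 11.5 prior degrees of freedom. The spread comes from treated chips alone and is assumed to hold for the vehicle chip, which averages more animals; the number of chips limits the precision. P-values set each difference against the spread between treated pools, which the fit moderates across probe sets. They hold no spread between vehicle pools. Symbols were updated by Entrez ID through the GRCr8 gene table (12748 of 12783 matched). Motifs were searched in 1 start window per gene symbol. Detection calls were not used here.

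Members, gene lists and motifs were chosen with earlier results of these data known. Values on every chip are given for the inducible subunits and their constitutive counterparts, the activators, members with an unadjusted p under 0.05 and the 5 largest differences in each direction; from each other list, at most 3 genes with the smallest p. Psmb4, Nfe2l1, B2m, Tap1, Tap2, Mafg, Ptprc, Ifit3, Gbp2, Irf8, Oas1b and the further probe sets of list genes were named after their values were seen. Alternatives changed the pseudocount, filter, scaling, trend, choice of probe set and treated chips.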

Additional observations from a re-analysis of the deposited data

How the results depend on the processing

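No proteasome probe set was called under any of the 11 alternatives; the smallest limma adjusted p of a member among them was 0.643. Of 185 values of the 17 named member probe sets under these alternatives, 184 kept their direction and stayed above the threshold; the exception was the second Psme4 probe set, at -0.0137, which turned to 0.0607 without pool 2 and ran from -0.0643 to 0.0607 over the fits without a pool. The median of the 20S core went from 0.0477 to 0.0609 with quantile normalization and ran from -0.0079 to 0.0866 when a treated pool was left out, so its sign is not settled. That of the 19S particle is not settled either: 0.012 with all pools and -0.0193 to 0.0263 with a pool left out. The median of activators and chaperones was 0.1037 and fell to 0.0491 without pool 1 and 0.0545 without pool 3. Medians of groups other than the 20S core moved by less than the SD between pools under all alternatives, also without Psmc3ip or Psme3ip1, an alternative chosen after seeing the data. Over all probe sets the count of calls was 5 with a filter at the 20th percentile, after quantile normalization and after centring each chip on its 75th percentile, 1 without a trend, and 31 to 55 when a treated pool was left out. It was 0 of 15866 in limma without the filter, where 776 had an unadjusted p under 0.05. No paired analysis was possible because the chips of each group held separate pools of animals. A single vehicle chip limits all of these.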
